A study of Mus musculus with 9 samples.

Results

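Solute carriers are the membrane proteins, numbered in families under the symbol Slc, that move amino acids, sugars, ions, metals, vitamins and metabolites across the plasma membrane and the membranes of organelles. The set described here holds the genes whose symbol starts with Slc and a number, other than Slc2a1, Slc16a1 and Slc16a3, with at least 1 FPKM in 3 or more of 9 libraries. FPKM is a level of fragments corrected for the length of the transcript and the size of the library. Of 11051 genes in the table, 168 carry such a symbol and 151 met the rule. Members were thus chosen by symbol and by FPKM over all libraries, and their levels are given as a description. The rule did not use the differences between groups. At the level limit, Slc35a2, which imports UDP-galactose into the Golgi, was just inside with a third-highest value of 1.10 FPKM. Slc25a26, the mitochondrial carrier of S-adenosylmethionine, was just outside, at a value that rounds to 1.00 but lies under it. The 15 genes with lower levels include Slc7a11, the cystine-importing chain of the cystine-glutamate exchanger, which read 0.507 ± 0.0886, 0.767 ± 0.160 and 0.814 ± 0.106 FPKM in the 3 groups below (SD, n = 3) and was not tested. Not every symbol in the set stands for a carrier. Slc9a3r1 encodes a scaffold protein that holds exchangers at the membrane, Slc4a1ap an adaptor named for an anion exchanger, and Slc3a2 the heavy chain that escorts several amino acid exchangers to the surface. Slc7a6os is named for lying opposite Slc7a6.

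Carriers of the plasma membrane bring in nutrients either down their gradient or by coupling to the sodium gradient. The Slc25 carriers exchange nucleotides, phosphate and metabolites across the inner mitochondrial membrane, and Slc35 carriers supply the Golgi and endoplasmic reticulum with nucleotide sugars for glycoproteins. Hepatic stellate cells are liver pericytes that store vitamin A and, once activated, secrete collagen, which draws on amino acid supply and on the secretory pathway.

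Total RNA was sequenced from primary stellate cells of C57BL/6 mice, cultured in DMEM with serum depleted of exosomes. Exosomes are small vesicles that cells release into their medium. The Control group received those of epithelial cells grown from mouse pancreatic ducts, the KPC group those of the KPC pancreatic adenocarcinoma line, and the Panc02 group those of the Panc02 pancreatic adenocarcinoma line. Each group had 3 libraries. No genotype other than the strain, age, exosome dose or exposure time is given in the labels, and all groups received exosomes of some kind, so no group shows the cells without them. Nothing states whether each library is a culture or an animal of its own, so a p-value measures only the spread between these samples.

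The libraries numbered 1 stood apart from the rest in every group. Mitochondrially encoded genes took 26.4%, 33.6% and 28.3% of their summed FPKM, against 11.2% to 15.9% in the other 6 libraries. Read depth cannot be taken from FPKM and is unknown. The 8 measured stellate cell and myofibroblast markers, among them Acta2 and Col1a1, summed to 1175 to 1426 FPKM in Control, 1356 to 1912 in KPC and 1611 to 1940 in Panc02. The list held 11, and its other members, Des, Lrat and Reln, had no values. None of the 5 listed hepatocyte markers was analysed here. The 3 measured macrophage markers summed to between 3.74 and 6.10 FPKM over all libraries. The epithelial gene Krt19 was listed at 0, 0 and 0.451 FPKM in Control, at 0.819, 0.489 and 0.0401 in KPC, and at 3.89, 0 and 1.01 in Panc02. Epcam was likewise highest in Panc02 replicate 1, at 3.89 FPKM. Sox9, the other measured gene on the same list of biliary epithelium markers, was not low. It read 19.3 to 23.3 FPKM over all libraries, with means of 21.6 in Control, 20.9 in KPC and 22.6 in Panc02. The part of these markers in the results below was not tested.

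In the Control libraries the 151 solute carrier genes summed to 1843 FPKM on average, and their median was 5.57 FPKM, against 7.69 for all 10368 genes tested. Mitochondrial carriers, with 33 genes, held 37.7% of that sum. Carriers of amino acids and peptides, with 21 genes, held 21.8%, and carriers of metals, with 22, held 17.3%. Nucleoside and nucleotide sugar carriers (25 genes) held 8.33%, and carriers of inorganic ions, protons and phosphate (22 genes) held 7.93%. The remaining groups, which are sugars, organic anions, lipids and choline, vitamins, and organic cations, held between 0.819% and 1.69% each. The families were assigned to these groups by number, so a family with mixed substrates counts once. Most members were low: 104 of 151 averaged under 10 FPKM in Control, and 7 reached 50 or more.

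**Figure D1:**
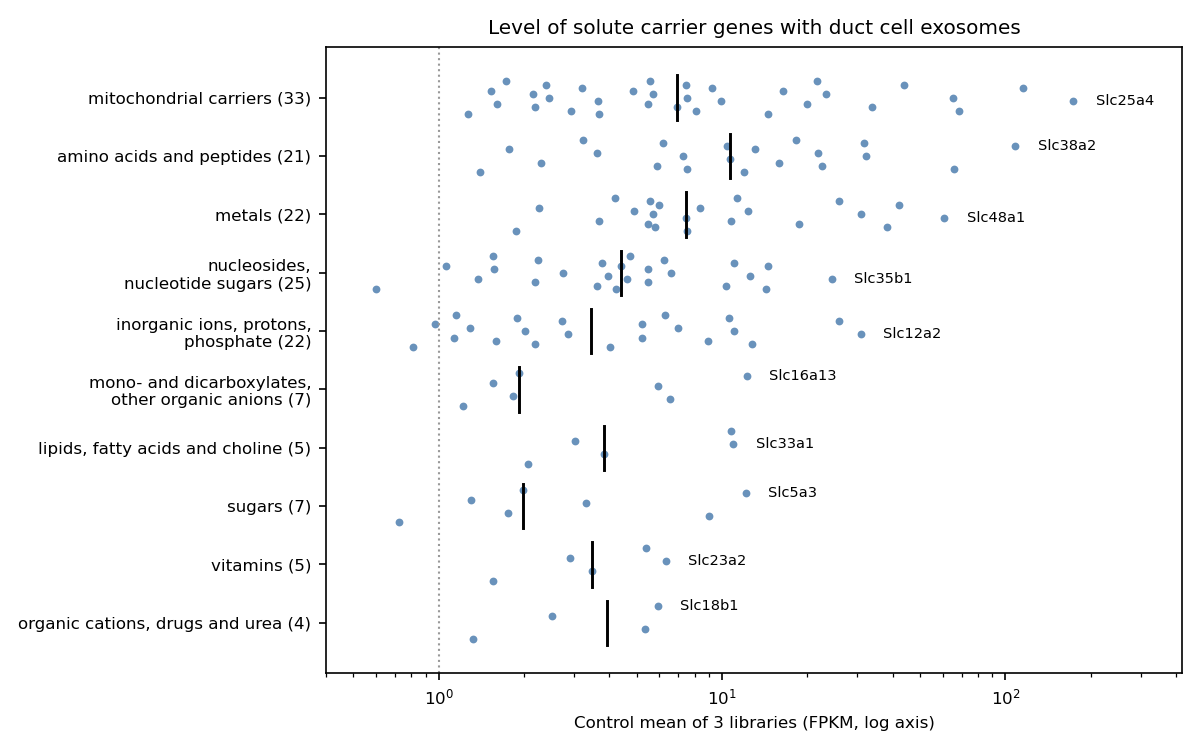
Mean Control level of each of the 151 solute carrier genes (log axis, FPKM), by substrate group, with the group median as a black bar, the highest gene of each group named and a dotted line at 1 FPKM. Slc25a4 at 173, Slc25a5 at 115 and Slc38a2 at 108 FPKM lie at the top, and most genes lie under 10.

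The highest members were the adenine nucleotide carriers. Slc25a4, which exchanges ADP for ATP across the inner mitochondrial membrane, read 159, 178 and 183 FPKM in Control, 145, 194 and 190 in KPC, and 136, 179 and 189 in Panc02. Its relative Slc25a5 read 95.9, 134 and 115 in Control, 90.6, 127 and 133 in KPC, and 89.8, 117 and 132 in Panc02. The groups of both genes overlapped throughout, and in each group the library numbered 1 was the lowest. Slc38a2, the sodium-coupled importer of small neutral amino acids that cells induce when amino acids run short, followed at 108 ± 15.2 FPKM in Control, within the range of Slc25a5. Next came Slc25a3, the phosphate carrier of mitochondria, at 68.7 ± 14.9, Slc38a4, a neutral amino acid importer strong in liver, at 65.6 ± 2.51, and Slc25a24 at 65.5 ± 1.91. These 3 could not be ordered by their spread. Slc48a1, which exports heme from lysosomes, stood at 60.7 ± 9.02. The first 10 genes by Control level held 42.4% of the summed level of all 151.

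Levels with tumour cell exosomes were compared with Control to ask which carriers differ when stellate cells receive exosomes of pancreatic cancer cells. Differences were tested with limma on log2(FPKM + 1) over all 10368 genes, 2-sided, and the limit for passing was a Benjamini-Hochberg adjusted p of 0.05. The fit was repeated with the replicate number as a block, since libraries with the same number deviated together, most clearly those numbered 1. Libraries numbered 2 and 3 of different groups deviated together about as much as those that share a number. Among the 151 solute carriers, 0 passed with KPC exosomes, where 0.328% of all genes did, and 11 had an unadjusted p under 0.05, or 7.28% against 6.54% of all genes. With Panc02 exosomes 0 passed, where 1.01% of all genes did, and 17 had an unadjusted p under 0.05, or 11.3% against 9.6% of all genes. With both tumour sources together against Control, 1 passed, where 1.26% of all genes did, and 17 had an unadjusted p under 0.05, or 11.3% against 10.2%. With the block these counts were 1 for KPC (1.68% of all genes), 4 for Panc02 (4.24%) and 6 for both sources (4.55%). In this last contrast 3.97% of the solute carriers passed, a share near that of all genes. The comparisons with KPC and with Panc02 share the Control libraries and are not independent.

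The median log2 difference of the 151 genes was 0.01 with KPC and 0.01 with Panc02, against -0.01 and -0.00 for all genes tested. With KPC exosomes, 81 lay above Control, or 53.6% against 47.3% of all genes, and with Panc02 78 lay above, or 51.7% against 49.6%. The 7 carriers of organic anions had medians of -0.10 and -0.13, with 6 below Control in each contrast. The 21 amino acid carriers had medians of 0.08 and 0.14, and the 33 mitochondrial carriers -0.01 and -0.03. For KPC, 4 solute carriers lay above Control in every library and 14 below, or 2.65% and 9.27% against 4.14% and 7.31% of all genes. For Panc02 these were 14 and 16, or 9.27% and 10.6% against 6.79% and 9.3%. Genes for which all 6 tumour exosome libraries lay above all 3 Control libraries numbered 3, or 1.99% of members against 2.94% of all genes. Those for which all 6 lay below numbered 12, or 7.95% against 5.62%. Because the values are measured on bulk RNA, fewer cells of a type and less RNA per cell cannot be told apart.

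**Figure D2:**
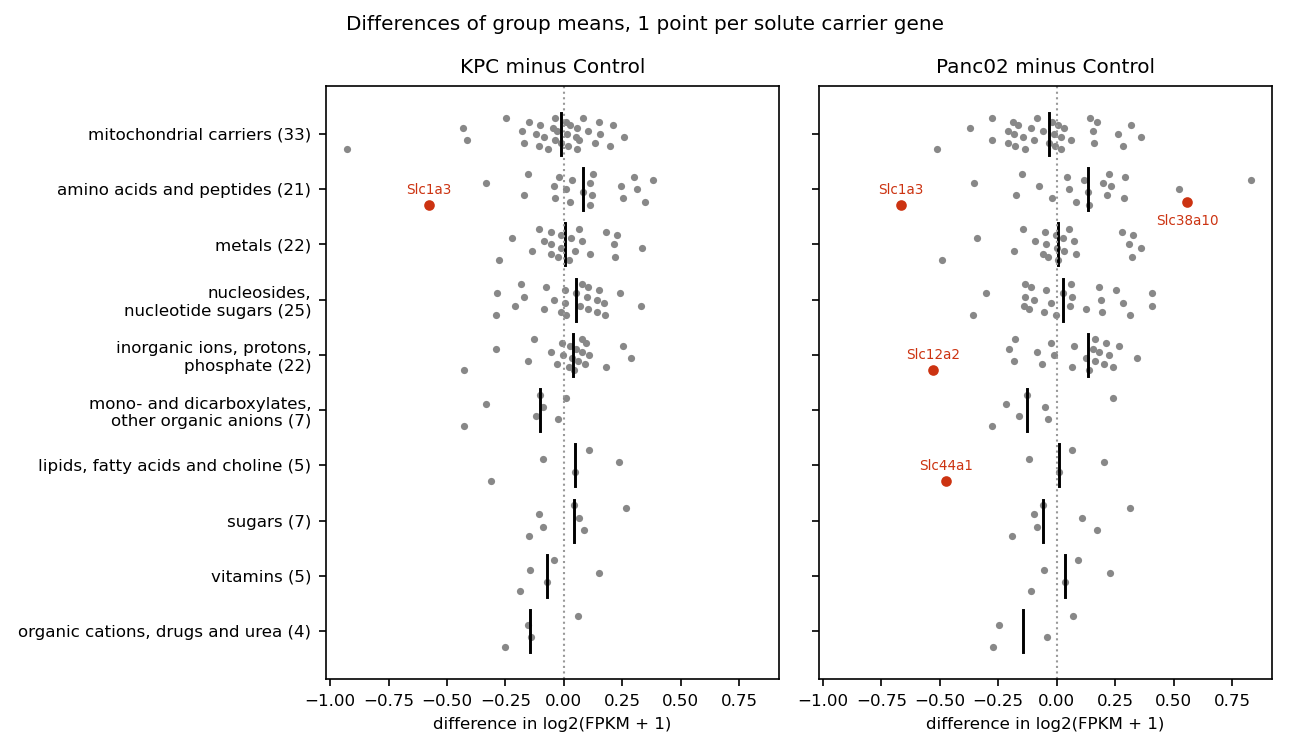
Difference from Control in log2(FPKM + 1) for each of the 151 solute carrier genes, by substrate group, with KPC on the left and Panc02 on the right. Black bars are group medians, and red points are the genes that passed with the replicate block, which are 1 for KPC and 4 for Panc02, among which Slc38a10 alone lies above 0.

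Among the ion carriers, Slc12a2 was the gene that passed without the block. It encodes the cotransporter that brings sodium, potassium and chloride into the cell together and sets cell volume and internal chloride. The gene (ENSMUSG00000024597.10) spans 57878678 to 57946821 of chromosome 18 in GRCm38. It read 27.7, 32.6 and 32.1 FPKM in Control, 23, 21.6 and 23.3 in KPC, and 22.2, 21.7 and 19.1 in Panc02. Every library with tumour exosomes lay below every Control library, with means of 30.8 ± 2.73, 22.6 ± 0.895 and 21 ± 1.65 (SD, n = 3). With both sources together Slc12a2 fell by 0.48 on the log2 scale (SE 0.09, 95% interval -0.68 to -0.28, adjusted p = 0.0413 by limma). With KPC alone the adjusted p was 0.212 (0.0803 with the block), and with Panc02 alone it was 0.0556 (0.0234 with the block). The call was lost when any of the 9 libraries was left out, with an adjusted p from 0.0520 without KPC replicate 1 to 0.265 without Control replicate 3. It was also lost at equal library medians (adjusted p = 0.096), and it was kept without the libraries numbered 1 (adjusted p = 0.0102).

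The other ion carriers described here did not pass in either fit. Slc12a4, the widespread potassium-chloride exporter, read 12.7 ± 2.23, 15.8 ± 5.26 and 16.5 ± 3.52, so its mean lay above Control where that of Slc12a2 lay below. Slc20a1, a sodium-phosphate importer, read 11 ± 1.4, 11.8 ± 3.55 and 13.1 ± 2.44. The groups of both genes overlapped. Slc4a7, a sodium-bicarbonate importer, read 4.03 ± 0.379, 3.93 ± 0.429 and 4.26 ± 0.309, with differences from the Control mean smaller than the Control SD.

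Among amino acid carriers, Slc1a3 did not pass without the block and passed with it in every contrast with Control. It encodes a sodium-driven importer of glutamate and aspartate, best known from astrocytes. The gene (ENSMUSG00000005360.14) lies on chromosome 15, from 8634124 to 8710764. It read 21.2, 14.9 and 18.8 FPKM in Control, 14.7, 9.32 and 11.9 in KPC, and 14.7, 9.96 and 9.12 in Panc02. All 6 tumour exosome libraries lay below the lowest Control library, by little for those numbered 1, which were the highest of each group. The log2 difference was -0.58 for KPC (adjusted p = 0.618, and 0.0479 with the block) and -0.67 for Panc02 (0.292, and 0.0171 with the block). For both sources it was -0.62, with an SE of 0.19 and an adjusted p of 0.230, or 0.0117 with the block (limma). Without the libraries numbered 1 and without the block, the adjusted p was 0.0378 for Panc02, 0.0282 for both sources and 0.0864 for KPC.

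Slc38a10 was the sole member that passed upward in the blocked fit. It belongs to the family of sodium-coupled neutral amino acid carriers and its transport role is less settled than that of its relatives. The gene (ENSMUSG00000061306.15) lies on chromosome 11, from 120103960 to 120151346, and shares exon bases with a gene on the other strand. It read 13.8, 16.8 and 17.1 FPKM in Control, 16.4, 20.6 and 27.1 in KPC, and 18.3, 27.8 and 26.5 in Panc02. All Panc02 libraries lay above Control, while KPC replicate 1 lay within it. The log2 difference was 0.56 for Panc02 (limma adjusted p = 0.402, and 0.0299 with the block) and 0.47 for both sources (0.398, and 0.0320 with the block). For KPC it was 0.38, with an adjusted p of 0.159 with the block.

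Other amino acid carriers lay on both sides of Control, and none passed. Slc38a4, among the highest members in Control, lay below it in every library of both tumour exosome groups. Slc38a2 read 90.9, 118 and 116 FPKM in Control, 70.8, 85.2 and 103 in KPC, and 77.1, 92.7 and 83.0 in Panc02, with a difference of -0.34 for both sources (adjusted p = 0.435, and 0.0599 with the block). Its KPC and Control libraries overlapped, as did those of Panc02, through the low Control replicate 1. Slc7a1, the importer of arginine and lysine, read 6.86, 7.47 and 7.49 in Control, 7.97, 8.82 and 9.64 in KPC, and 8.83, 9.69 and 8.78 in Panc02. Its groups did not overlap with Control, and the difference was 0.27 (adjusted p = 0.259, and 0.0761 with the block).

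Slc7a5, the light chain of the exchanger that brings in leucine and other large neutral amino acids, had a difference of 0.27, from 21.7 ± 2.40 to 26.4 ± 5.50 and 26.9 ± 3.86 FPKM. Its heavy chain Slc3a2 read 32.3 ± 3.71, 33.9 ± 9.28 and 34.5 ± 5.94, with overlapping groups. Slc36a1, which exports small amino acids from lysosomes with protons, read 2.11, 1.01 and 1.07 in Control, 1.85, 0.860 and 4.01 in KPC, and 2.37, 4.02 and 3.31 in Panc02. The KPC libraries ran from the lowest value of all to almost the highest, and for Panc02 the difference was 0.83 (adjusted p = 0.480). Slc1a4 and Slc1a5, exchangers of alanine, serine and cysteine or glutamine, read 13.1 ± 1.94 and 10.4 ± 2.42 in Control, 14.6 ± 4.19 and 13.7 ± 5.40 in KPC, and 15.3 ± 2.95 and 12.6 ± 4.16 in Panc02. Slc38a1, a glutamine importer, read 22.5 ± 1.61, 21.9 ± 2.15 and 21.3 ± 1.49. Slc6a6, the taurine importer, read 31.7 ± 0.820, 34.5 ± 3.86 and 35.1 ± 2.18. None of these genes passed in either fit.

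Both mitochondrial carriers that passed with the block move ATP-magnesium in exchange for phosphate, and calcium switches them on. Slc25a24 (ENSMUSG00000040322.10, chromosome 3, 109123149 to 109168457) read 67.2, 65.9 and 63.4 FPKM in Control, 57.2, 56.8 and 51.4 in KPC, and 54.5, 53.4 and 53.6 in Panc02. Its relative Slc25a23 (ENSMUSG00000046329.14, chromosome 17, 57043711 to 57059863) read 2.43, 1.96 and 2.06 in Control, 1.71, 1.18 and 1.23 in KPC, and 1.65, 1.58 and 1.10 in Panc02. For both genes all tumour exosome libraries lay below all Control libraries. For both sources together the log2 difference of Slc25a24 was -0.26 (limma adjusted p = 0.163, and 0.0366 with the block), and that of Slc25a23 was -0.39 (0.206, and 0.0431 with the block). Neither passed with KPC or Panc02 alone. Slc25a23 shares exon bases with a gene on the other strand, and its level is low, so its log2 difference understates the ratio of its means. The third carrier of this kind, Slc25a25, read 1.53 ± 0.187, 1.65 ± 0.298 and 1.64 ± 0.0322, and its groups overlapped.

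Slc25a51, which brings NAD into mitochondria, had the largest difference from Control among the mitochondrial carriers. The gene spans 45395923 to 45408766 of chromosome 4 and shares exon bases with another gene on its strand. It read 5.68, 7.18 and 7.98 FPKM in Control, 5.08, 2.62 and 2.23 in KPC, and 5.29, 5.89 and 6.74 in Panc02. The KPC libraries lay below the others, 2 of them far below and replicate 1 close to them, while Panc02 overlapped with Control. For KPC the difference was -0.93 (SE 0.23, limma adjusted p = 0.254, and 0.132 with the block). Without KPC replicate 1 it was -1.21 with an adjusted p of 0.0353. Without all 3 libraries numbered 1, which leaves 2 libraries a group, it was -1.33 with an adjusted p of 0.00662. With any other single library left out it did not pass, with an adjusted p from 0.313 without Panc02 replicate 1 to 0.767 without Control replicate 3. On the KPC and Control libraries alone the adjusted p was 0.584.

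Slc25a27, an uncoupling-protein relative known from brain, read 2.92 ± 0.523 FPKM in Control, 1.89 ± 0.303 in KPC and 1.74 ± 0.224 in Panc02. Its groups did not overlap with Control, and the difference was -0.47 (limma adjusted p = 0.119, and 0.0501 with the block). Slc25a36, which carries pyrimidine nucleotides, read 7.51 ± 0.557, 6.5 ± 0.0278 and 6.02 ± 0.445, also without overlap, and did not pass (0.327). Slc25a37, the mitochondrial iron importer of red cell precursors, read 16.4 ± 1.83, 17.3 ± 1.13 and 19.8 ± 1.43, with Panc02 above Control in every library and an adjusted p of 0.481 there. Slc25a3 read 68.7 ± 14.9, 67.6 ± 18.1 and 63.8 ± 15.2, so its groups overlapped.

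Slc44a1 was the member of the lipid and choline group that passed with the block. It brings choline, the precursor of phosphatidylcholine, into cells. The gene (ENSMUSG00000028412.17, chromosome 4, 53440413 to 53622478) shares exon bases with a gene on the other strand. It read 9.57, 11.7 and 11.1 FPKM in Control, 7.76, 8.31 and 9.43 in KPC, and 6.98, 8.31 and 7.19 in Panc02. Every tumour exosome library lay below every Control library, KPC replicate 3 by the least. The difference was -0.47 for Panc02 (limma adjusted p = 0.143, and 0.0271 with the block) and -0.39 for both sources (0.143, and 0.0292 with the block). For KPC it was -0.31, with an adjusted p of 0.159 with the block.

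**Figure D3:**
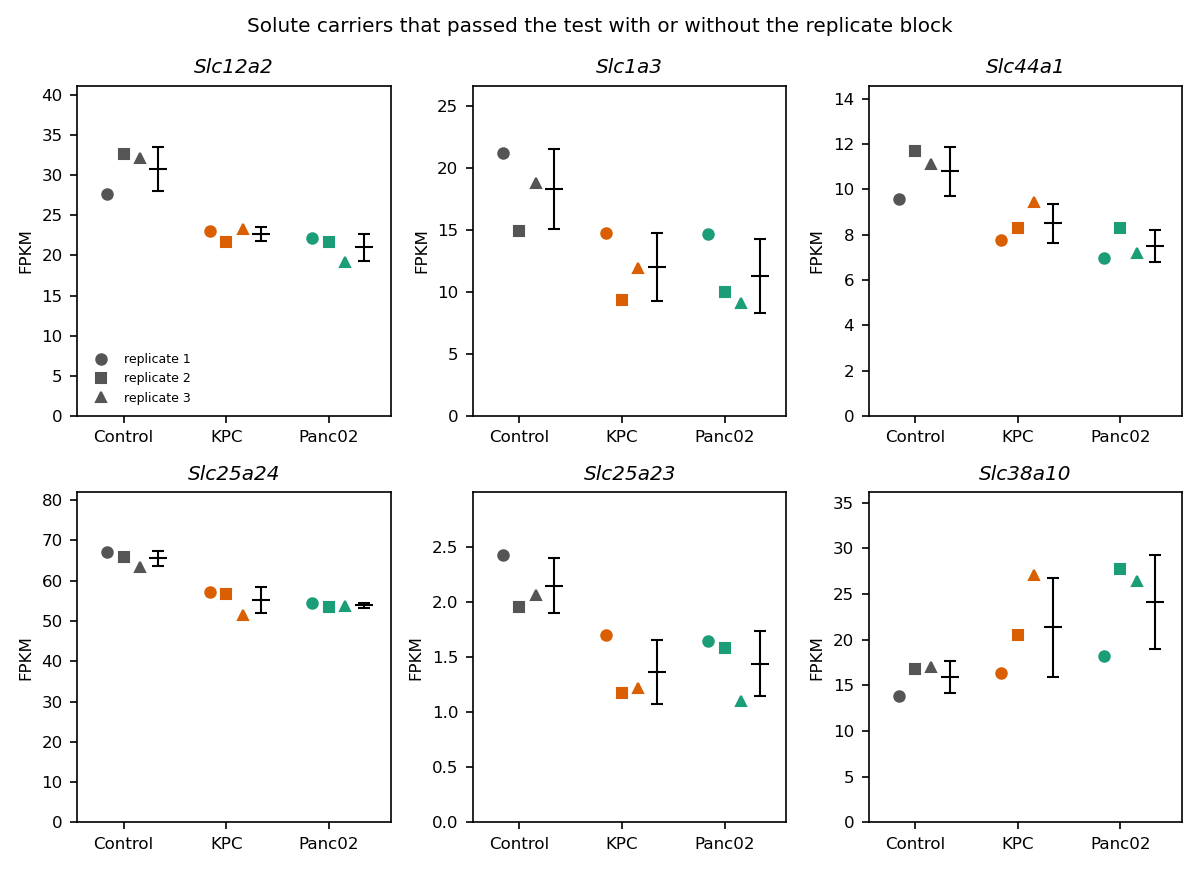
FPKM of the 6 solute carrier genes that passed in either fit, by library, with symbols for the replicate number and the group mean ± SD (n = 3) in black. Slc12a2, Slc1a3, Slc44a1, Slc25a24 and Slc25a23 lie below Control in all 6 tumour exosome libraries, and Slc38a10 lies above Control except in KPC replicate 1, at 16.4 FPKM.

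No metal carrier passed in either fit. Slc30a4, which loads zinc into vesicles, read 34, 48.3 and 44.2 FPKM in Control, 29.7, 35.3 and 38.3 in KPC, and 29.5, 36.2 and 32.9 in Panc02, with a difference of -0.31 (limma adjusted p = 0.483, and 0.0506 with the block). Its groups overlapped through Control replicate 1. Slc41a2, a magnesium carrier, lay apart from Control on the other side, at 5.48, 5.96 and 5.71 in Control, 6.19, 8.15 and 8.24 in KPC, and 6.86, 7.94 and 7.50 in Panc02. Its difference was 0.33 (0.249, and 0.0510 with the block). Slc39a7, which releases zinc from the endoplasmic reticulum, read 38.3 ± 6.97, 47 ± 18 and 51.6 ± 18.9, with the libraries numbered 1 lowest in every group. Slc39a13, a zinc carrier of the secretory pathway whose loss in people gives a connective tissue disorder, read 12.8, 10.7 and 13.5 in Control, 12, 15.3 and 16.7 in KPC, and 14.5, 16.5 and 15.9 in Panc02. Slc39a14, which takes up zinc and iron, read 3.69 ± 0.627, 4.36 ± 1.18 and 4.69 ± 0.688. For both of these genes the Panc02 libraries lay above Control and the KPC libraries overlapped with it. Slc48a1 read 60.7 ± 9.02, 57.4 ± 15.2 and 55.4 ± 11.8, with overlap.

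None of the carriers that follow passed in either fit. Slc35d2, a carrier of nucleotide sugars in the Golgi, read 2.01, 2.47 and 2.25 FPKM in Control, 1.65, 1.66 and 1.64 in KPC, and 1.32, 1.82 and 1.78 in Panc02, without overlap, and its difference was -0.30 (limma adjusted p = 0.233, and 0.0746 with the block). Slc35b1, the highest of the group and the carrier of ATP into the endoplasmic reticulum, read 24.4 ± 1.47, 28 ± 5.04 and 28.2 ± 3.32. Slc29a1, the nucleoside carrier of the plasma membrane, read 3.76 ± 0.420, 4.29 ± 0.855 and 4.95 ± 0.801, with Panc02 alone apart from Control. Slc5a3, which brings in myo-inositol and shares exon bases with another gene on its strand, read 12.1 ± 1.68, 11.2 ± 2.13 and 10.5 ± 1.08. Slc33a1, which supplies acetyl-CoA to the endoplasmic reticulum, read 11 ± 0.906, 10.2 ± 0.678 and 10.0 ± 1.16.

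Among organic anion carriers, Slc17a5, which lets sialic acid out of lysosomes, read 6.32, 6.44 and 6.84 FPKM in Control, 2.65, 5.46 and 6.43 in KPC, and 4.85, 5.66 and 5.17 in Panc02, so Panc02 lay below Control and KPC overlapped with it. Slc16a13, the highest of that group, read 12.2 ± 1.71, 12.1 ± 2.89 and 11.8 ± 2.08. Among lipid carriers, the fatty acid importers Slc27a4 and Slc27a1 read 3.84 ± 0.900 and 2.07 ± 0.599 in Control, 4.44 ± 2.01 and 2.23 ± 0.951 in KPC, and 4.69 ± 1.65 and 2.23 ± 0.725 in Panc02. The groups of both overlapped, with the library numbered 1 lowest in each. Slc26a2, which brings in sulfate for the proteoglycans of cartilage, read 1.89 ± 0.123, 2.05 ± 0.200 and 2.48 ± 0.311, with Panc02 above Control in every library and a limma adjusted p of 0.411 there. Slc39a9, a zinc carrier, read 4.31, 1.81 and 5.80 in Panc02 against 4.79 to 6.11 in Control, so Panc02 replicates 1 and 2 lay below Control, replicate 2 far below, and replicate 3 lay within it.

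The vitamin carriers Slc23a2 for ascorbate and Slc52a2 for riboflavin read 6.32 ± 1.15 and 3.47 ± 1.36 FPKM in Control, 6.16 ± 1.64 and 3.37 ± 1.65 in KPC, and 6.02 ± 0.757 and 3.72 ± 1.13 in Panc02. Slc22a5, which imports carnitine, read 2.51 ± 0.793, 2.16 ± 0.687 and 1.96 ± 0.670, and Slc18b1, a polyamine carrier of vesicles, 5.94 ± 0.949, 5.27 ± 0.581 and 5.70 ± 0.303. Slc11a2, the proton-coupled iron importer, read 5.78 ± 1.13, 5.75 ± 1.32 and 5.61 ± 1.13, and Slc30a1, which exports zinc from cells, 2.25 ± 0.271, 2.43 ± 0.262 and 2.36 ± 0.0717. For each of these genes, the differences from the Control mean were smaller than the SD of the Control libraries.

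Windows upstream of the start are shown for 5 of the 6 genes that passed in either fit, so that their sequence can be read beside their values. Slc7a1 was added after its match had been seen. Each sequence is the 250 bases before the RefSeq start in GRCm38.p6, written in the direction of the gene. Where a gene has several such starts, the one nearest its deposited start was used. Capitals mark the first match to a searched motif, where there is one. The motifs, searched on both strands, were TGACNNNGC, the core of the antioxidant response element, TGATGNAA, an element bound by Atf4, the factor of the amino acid response, TGCNCNC, the core of the metal response element, CACGTG, the E-box, and ACGTG, the core of the hypoxia element, which lies within CACGTG.
Slc1a3 (chr15:8710808-8711057, minus strand): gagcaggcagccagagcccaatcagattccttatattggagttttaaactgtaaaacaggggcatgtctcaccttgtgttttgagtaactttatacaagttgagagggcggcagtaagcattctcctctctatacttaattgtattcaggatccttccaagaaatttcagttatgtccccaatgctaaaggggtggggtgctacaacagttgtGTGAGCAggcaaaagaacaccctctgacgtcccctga
Slc44a1 (chr4:53440163-53440412, plus strand): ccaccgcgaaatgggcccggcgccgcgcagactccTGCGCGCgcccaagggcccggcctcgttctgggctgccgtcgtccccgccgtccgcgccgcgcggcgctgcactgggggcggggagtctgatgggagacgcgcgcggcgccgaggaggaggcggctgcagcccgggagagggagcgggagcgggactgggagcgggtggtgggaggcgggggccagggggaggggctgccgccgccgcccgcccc
Slc25a24 (chr3:109122899-109123148, plus strand): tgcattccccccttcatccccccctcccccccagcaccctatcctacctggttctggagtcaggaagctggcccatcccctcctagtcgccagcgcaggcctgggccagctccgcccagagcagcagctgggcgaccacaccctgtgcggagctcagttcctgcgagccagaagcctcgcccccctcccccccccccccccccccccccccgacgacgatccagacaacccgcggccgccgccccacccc
Slc25a23 (chr17:57059864-57060113, minus strand): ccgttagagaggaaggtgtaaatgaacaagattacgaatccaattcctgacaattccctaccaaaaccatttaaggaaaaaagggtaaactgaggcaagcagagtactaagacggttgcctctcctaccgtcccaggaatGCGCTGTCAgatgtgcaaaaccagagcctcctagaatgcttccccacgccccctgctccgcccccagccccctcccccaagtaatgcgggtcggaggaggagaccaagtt
Slc38a10 (chr11:120151352-120151601, minus strand): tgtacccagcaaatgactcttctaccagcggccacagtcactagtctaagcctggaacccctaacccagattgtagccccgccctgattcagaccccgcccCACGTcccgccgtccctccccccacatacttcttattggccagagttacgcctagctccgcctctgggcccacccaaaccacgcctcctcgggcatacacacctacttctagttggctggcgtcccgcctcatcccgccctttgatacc
Slc7a1 (chr5:148399905-148400154, minus strand): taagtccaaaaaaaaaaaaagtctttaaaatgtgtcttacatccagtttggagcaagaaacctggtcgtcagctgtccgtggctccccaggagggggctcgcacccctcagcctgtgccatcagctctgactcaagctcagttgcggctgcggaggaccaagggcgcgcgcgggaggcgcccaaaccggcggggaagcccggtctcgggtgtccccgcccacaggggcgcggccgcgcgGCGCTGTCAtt

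Slc25a23 and Slc7a1 hold the same 9 letters, GCGCTGTCA, a match to TGACNNNGC on the other strand. They begin 110 bases before the start in Slc25a23 and 11 bases before it in Slc7a1. The first gene passed downward with the block and the second did not pass, with values above Control. Slc44a1 holds TGCGCGC 215 bases before its start, Slc1a3 holds GTGAGCA at 37, and Slc38a10 holds CACGT at 149. In Slc25a24 none of the 5 motifs occurs in its window.

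Over the whole RefSeq window, which runs from 250 bases before the start to 50 after it, 117 of the 151 solute carriers could be searched. Some genes have several windows, and a gene was counted if any of its windows held the motif. Genes with several starts thus had more chances to match. TGACNNNGC was found in 24.8% of the 117 carriers, in 14% of all 27025 genes with a window and in 16.9% of the 8142 tested genes with one. Counted by window, it was found in 12.4% of all 32851 windows. CACGTG was found in 17.9%, against 8.09% and 12.3%, and ACGTG in 33.3%, against 21.8% and 30.6%. TGCNCNC was found in 67.5%, against 53.6% and 64.4%. TGATGNAA was found in 2 members, Slc1a4 and Slc50a1, or 1.71%, against 4.51% and 2.32%. These shares describe letters in a window, and no binding was measured.

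Panc02 and KPC exosomes were then set against each other. No solute carrier passed, in either fit, where 0% of all genes did, and the median log2 difference of the 151 genes was 0.02. Unadjusted p was under 0.05 for 2 of them, against 0.829% of all genes. The 3 libraries of each group did not overlap for 4 solute carriers, which is 2.65% of them against 2.62% of all genes. Slc25a51 lay higher with Panc02 in the values given above, by 0.75 (unadjusted p = 0.0120, limma adjusted p over 0.99). Without the libraries numbered 1 this difference was 1.09, with an adjusted p of 0.0323. With any single library left out, the adjusted p was 0.494 or more. Slc16a9, a carnitine carrier, also lay higher with Panc02, at 1.23, 1.27 and 1.5 FPKM against 0.923, 1.23 and 0.919 with KPC and 1.33, 1.56 and 1.76 in Control. Its nearest libraries, KPC replicate 2 and Panc02 replicate 1, read 1.226 and 1.232 and were thus almost equal. Slc25a35, a mitochondrial carrier of unsettled substrate, lay lower, at 0.925, 0.899 and 1.17 against 1.35, 1.99 and 1.26. Slc16a10, the carrier of aromatic amino acids, also lay lower, at 1.46, 1.44 and 1.4 against 1.57, 1.66 and 1.57, by -0.09 on the log2 scale. The last 3 genes read under 2 FPKM in all 9 libraries, where log2(FPKM + 1) compresses differences.

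**Figure D4:**
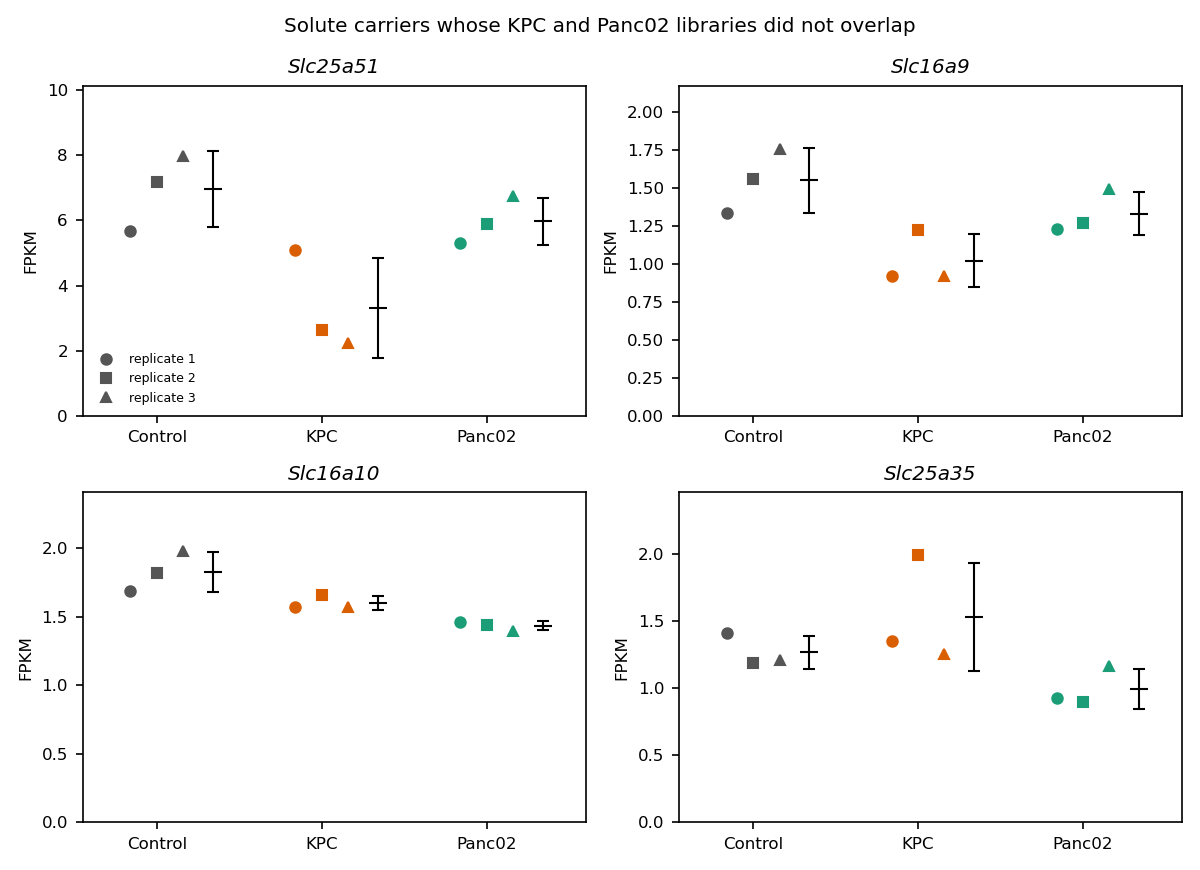
FPKM by library for the 4 solute carrier genes whose Panc02 and KPC libraries do not overlap, with symbols for the replicate number and the group mean ± SD (n = 3) in black. In Slc25a51 the KPC libraries, at 5.08, 2.62 and 2.23 FPKM, lie below all libraries of both other groups.

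Genes that work beside these carriers, and the stellate cell markers, were read from lists. No gene of the lists passed without the block in any contrast with Control, and the counts below are those with the block for both sources, where 4.55% of all genes passed. Of the 8 stellate cell and myofibroblast markers, 4 passed upward, with a median difference of 0.45 over the list. These were Col1a1 and Col3a1, chains of fibrillar collagen, Lox, which crosslinks collagen, and Acta2, the smooth muscle actin of myofibroblasts. Timp1, Col1a2, Pdgfrb and Spp1 did not pass. The difference was above 0 for 7 of the 8 markers and below it for Spp1. Spp1 had means of 378, 349 and 350 FPKM (difference -0.11, limma adjusted p = 0.370 with the block). Every tumour exosome library lay below every Control library for Spp1, the nearest by little. Col1a1 had means of 107, 188 and 218 FPKM (difference 0.90, limma adjusted p = 0.0659, and 0.00363 with the block). Acta2 had means of 319, 457 and 507 (0.59, adjusted p = 0.0887, and 0.00735 with the block). Their part in the differences of the carriers was not tested. Of 29 tested carriers named outside the Slc series, 1 passed upward and 2 downward. Mfsd2a, the carrier of lysophosphatidylcholine, had means of 1.56, 2.58 and 2.32 FPKM (limma adjusted p = 0.0456 with the block). Slco2a1, the prostaglandin importer, had means of 11.2, 8.89 and 8.0 (0.0271), and Ctns, which lets cystine out of lysosomes, 4.17, 3.02 and 3.04 (0.0456). Of 11 tested partners and pumps, among which Slc9a3r1 is also a member of the set, 1 passed downward. This was Sgk1, a kinase that keeps sodium carriers at the surface, with means of 92.4, 76.3 and 74.2 FPKM (0.0290).

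Of 14 genes of the amino acid stress response, 2 passed upward, and the list's median difference was 0.24, against -0.01 for all genes. Ddit4, which restrains the growth kinase mTOR under stress, had means of 42.3, 67.4 and 73.3 FPKM (difference 0.70, limma adjusted p = 0.256, and 0.00719 with the block). Trib3, a pseudokinase induced by Atf4, had means of 5.82, 10.3 and 11 (difference 0.71, adjusted p = 0.561, and 0.0285 with the block). Of 10 genes of glutathione supply and its regulator Nrf2, 1 passed downward, the regulator's own gene Nfe2l2, with means of 57.9, 47.1 and 45.6 (0.0271). Of 12 genes of iron and zinc handling, 1 passed downward, the ferroxidase Cp, with means of 15.2, 11.3 and 10.9 (0.0141).

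The libraries numbered 1 were lower than the others for most solute carriers, and each group holds 1 of them. Their summed level over the 151 genes was 1621, 1459 and 1541 FPKM in Control, KPC and Panc02, against 1937 to 2076 in the other 6 libraries. As a share of all FPKM outside the mitochondrially encoded genes this was 0.736%, 0.715% and 0.738%, against 0.821% to 0.905%. The library numbered 1 lay below the mean of the other 2 in every group for 106 solute carriers, or 70.2%, and above it in every group for 15, or 9.93%. For all tested genes these shares were 53.0% and 19.9%. The median offset was -0.30 on the log2 scale for solute carriers and -0.16 for all genes.

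The offset differed in size between groups of carriers. Its median was -0.78 for the 5 vitamin carriers, -0.56 for the 5 carriers of lipids and choline, and -0.22 for the 22 metal carriers. Slc19a2, which imports thiamine, had the widest range of all members, at 2.05, 4.30 and 9.80 FPKM in Control, 1.87, 5.19 and 6.29 in KPC, and 2.38, 5.66 and 5.19 in Panc02. Slc25a39, which brings glutathione into mitochondria, read 15.3, 24 and 25.4 in Control, 9.07, 24.2 and 28.9 in KPC, and 9.91, 24.1 and 28.1 in Panc02. In both genes the library numbered 1 was the lowest of each group by far, and the groups overlapped. The group means were close for Slc25a39. For Slc19a2 the Control mean was the highest, with Control replicate 3 at 9.80 FPKM. Slc6a8, the creatine importer, also varied widely, from 2.47 in KPC replicate 1 to 9.14 in Panc02 replicate 3. Slc39a10, a zinc importer, varied least, from 9.90 to 11.4 FPKM over the 9 libraries. Whether the offset comes from the RNA or from the libraries was not tested.

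**Figure D5:**
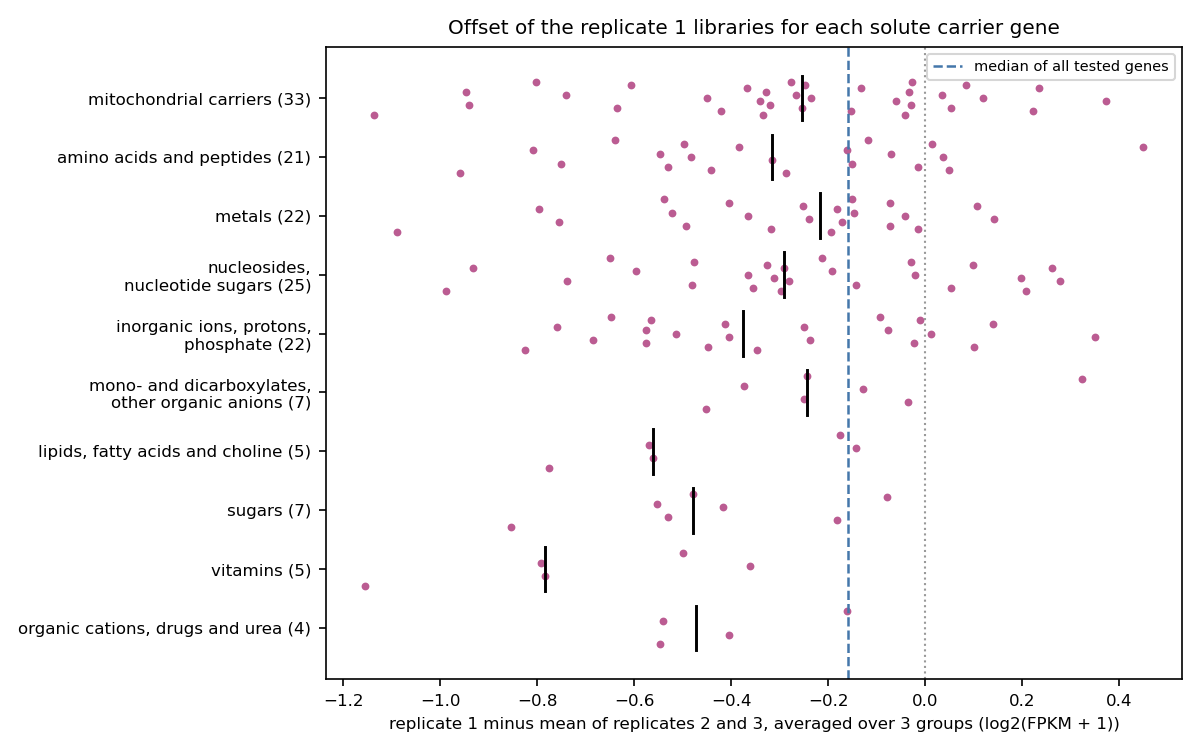
Offset of the library numbered 1 from the mean of numbers 2 and 3, averaged over the 3 groups, for each solute carrier gene (log2(FPKM + 1) scale), by substrate group with the group median as a black bar. The dashed line is the median of all tested genes at -0.16, and the dotted line is 0. Every group median lies to the left of the dashed line, from -0.22 for metals to -0.78 for vitamins.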

How the data were processed

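RNA was measured in 9 libraries of cultured mouse stellate cells, 3 per exosome source. The deposited values are FPKM for 11051 genes. Per the submitters' processing notes, cutadapt, HISAT2 2.0.4 and StringTie 1.2.3 were used with GRCm38. The version of cutadapt and any use of strand are not stated in them, so reads of overlapping genes may be mixed. Of the 151 members, 43 share exon bases with another gene in GENCODE M21. The results mark this for only some of the members named. Others that share exon bases include Slc39a9 (with Erh), Slc39a13 (with Psmc3), Slc48a1 (with Hdac7) and Slc25a35 (with Rangrf). RNA was extracted with Trizol and prepared with a TruSeq kit, per the labels' protocols.

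All genes with at least 1 FPKM in 3 libraries (10368, with 683 set aside) were converted to log2(FPKM + 1) and tested by limma (version 3.58.1, under R 4.3.3). The model held a mean per group and a prior variance that follows the level (6 residual and 2.38 prior degrees of freedom). Tests were 2-sided with Benjamini-Hochberg adjustment within a contrast over all 10368 genes. Fold differences on this scale are understated for low genes. Group values are means ± SD (n = 3). Members were grouped by family number. Named members are those that passed in either fit, had the lowest p or the widest range, led their group in level, lay at the level limit, or stand in a list of known carriers. Slc25a25, Slc4a1ap and Slc7a6os fall outside these classes and were named after their values were seen. The members and gene lists were chosen with earlier results of these data known.

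The labels do not say what the replicate numbers stand for. After removal of group means, same-numbered libraries correlated over genes (number 1, 0.639 to 0.81; numbers 2 and 3, from 0.243 up to 0.511), which met a rule of over 0.1 in every pair, so the number was used as a block beside the unblocked fit (4 residual and 3.51 prior degrees of freedom). A number 2 library and a number 3 library from another group correlated as well (0.299 to 0.613), so the data set number 1 apart and do not tie 2 to 2 or 3 to 3. Deviations from a group mean cancel within the group, so a shared offset of number 1 alone makes numbers 2 and 3 correlate. For numbers 2 and 3 the rule therefore could not decide whether the number acts as a block. Alternatives were a pseudocount of 0.1, no filter, the block, equal library medians, the contrast's own groups alone, each library left out, and the libraries numbered 1 left out. The fit was tested on simulated data with 200 changed genes. The simulated noise was independent between libraries, so this test does not cover the shared deviation of the libraries numbered 1. Promoter windows come from RefSeq on GRCm38.p6. Read depth is unknown, so counting error cannot be given.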

Additional observations from a re-analysis of the deposited data

How the results depend on the processing

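None of the named solute carriers that passed changed direction under the alternatives run. The count of those that passed with KPC exosomes, 0, became 1 with the replicate block, 2 without the 3 libraries numbered 1, and 0 to 1 with 1 library left out, the 1 being Slc25a51 without KPC replicate 1. With Panc02 exosomes the count of 0 became 4 with the block and 7 without the libraries numbered 1. For both sources the count of 1, Slc12a2, became 6 with the block, 0 at equal medians and 11 without the libraries numbered 1. With 1 library left out it was 0 to 1, and the 1 was Slc25a51, without KPC replicate 1, at an adjusted p of 0.0431. For Panc02 against KPC the count of 0 became 1, Slc25a51, without the libraries numbered 1. Without the libraries numbered 1, the share of all genes that passed was 1.72% for KPC, 4.6% for Panc02 and 7.3% for both sources, against 1.32%, 4.64% and 7.28% of the 151 carriers, shares near those of all genes. The replicate block gained 10 calls among the solute carriers named and lost 0. The cause of these moves was not tested, and the fits without the libraries numbered 1 rest on 2 libraries a group. Of 4071 values of single named carriers under alternatives, 4030 kept their side of the threshold, 10 no longer passed and 31 newly passed. Most of the 4030 passed in neither fit, so this count is no measure of stability. The only call of the main fit was Slc12a2 for both sources, kept in 4 of 14 alternatives, and the 10 losses are all of that call. In 301 of the 4071 values the sign changed with neither value past the threshold, which was not counted as a reversal. A fit on the contrast's own groups equals the full fit for both sources and was not run there. Read depth is unknown, and genes near 1 FPKM, where 1 pseudocount weighs most, are the least precise.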
